A study of Mus musculus with 2 samples.

Results

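The genes described here encode the nuclear subunits of the mitochondrial respiratory chain and of ATP synthase. They were chosen by gene symbol, as the rows whose symbol starts with Ndufa, Ndufb, Ndufc, Ndufs, Ndufv, Uqcr, Atp5, Cox4, Cox5, Cox6, Cox7 or Cox8, together with Sdha, Sdhb, Sdhc, Sdhd and Cyc1. Of 54532 gene rows, 108 carried such a symbol. The 9 whose symbol holds "-ps" were dropped, which left 99 rows under 98 symbols, since Atp5o stands in 2 rows. The prefixes also catch 8 assembly factors of complex I (Ndufaf1 to Ndufaf8), the supercomplex factor Cox7a2l, the ATP synthase coupling factor B gene Atp5s and 4 rows that the annotation classes as processed pseudogenes (Cox6c2, Ndufa11b, Ndufb4c and Ndufs6b).

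The respiratory chain passes electrons from NADH and succinate through its complexes to oxygen, and the proton gradient it builds drives ATP synthase, also called complex V. Complexes I, III, IV and V are mosaics of subunits encoded in the nucleus and in mitochondrial DNA, while complex II is encoded in the nucleus alone. Activated effector T cells are known to use both glycolysis and respiration to make ATP.

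Each group was represented by 1 RNA sequencing library, made from cells pooled over 4 mice, so differences between mice cannot be seen. All mice were of the NOD.scid strain, which has no T or B cells of its own, and all had been given activated BDC-2.5 T cells, whose transgenic receptor makes them diabetogenic. The mice of the 2.5HIP-PLG group were injected intravenously with 1.75 mg of 2.5HIP-PLG nanoparticles on day 1 after the cells, and the mice of the other group carry the label Untreated. Both samples carry the same protocol, which mentions the injection, so the groups rest on the treatment label alone. On day 6, CD4+ effector T cells that lacked GFP, and so Foxp3, were taken by flow sorting from the spleen and lymph nodes. The submitters' purpose was to learn how tolerance is brought about. The libraries are called treated and untreated below.

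Library totals were 22580648 counts (treated) and 26036623 counts (untreated). The 8 CD4 T cell markers examined were all abundant, at 7292 to 41743 counts in the treated library and 6495 to 39739 in the untreated one. After scaling, 6 of the 8 were at least 1.2-fold higher in the treated library, beside 13.5% of all genes with summed counts of at least 20. Thy1 was lower, with 27674 counts in the treated and 36784 in the untreated library (ratio 0.875). Cd8a had 0 counts in treated cells and 9 in untreated cells, and 4 B cell markers together had 7 and 16. The summed counts were 3046 and 2316 for 5 plasmacytoid dendritic cell markers (Irf8 alone had 2195 and 1067), 210 and 176 for 4 macrophage markers, 938 and 1115 for 3 erythroid markers, 82 and 110 for 10 striated muscle markers, 3 and 5 for 3 testis markers, and 0 and 1 for 4 brown fat markers. With a single library per group there is no replicate error, so nothing was tested and p-values are not given. A ratio means treated over untreated after scaling for library size, and the 95% range beside it is exact and covers counting error alone. In RNA from pooled cells, less RNA per cell and fewer cells that express a gene cannot be told apart.

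Respiratory chain genes had nearly the same level in both libraries. Of the 99 rows, 88 were measured, meaning that their counts in the libraries added up to at least 20. Of these 88, 0 were higher and 0 were lower by 1.5-fold with an interval that left out 1. By this rule, 5.32% of all 13902 measured genes were higher in treated cells and 9.42% were lower, 14.7% together. The share in either direction was 5.6% of the 6869 protein-coding genes whose counts summed to 1000 or more. The 99 rows held 166342 counts (0.737% of the library) in treated cells, against 184871 (0.71%) in untreated cells. The scaled ratio of these sums was 1.05 (1.04 to 1.05), and 1.026 with upper quartile scaling.

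At the smaller size of 1.2-fold, 6 of 88 members were higher and 1 was lower in treated cells. Over all measured genes this rule held for 13.5% on the high side and 16.7% on the low side, 30.2% together. The 6 higher members were Ndufa5, Ndufaf1, Ndufaf7, Ndufaf8, Uqcrb and Atp5g3, and the lower one was Ndufa10. The median log2 ratio was 0.076 over measured members and 0.003 over all measured genes. Ratios lay above 1 for 61 members and below 1 for 27, or for 53 and 35 with upper quartile scaling.

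Members with many reads had ratios close to each other. Among the 71 with summed counts of 1000 or more, the log2 ratio had a standard deviation across genes of 0.107, against 0.351 across the 6869 protein-coding genes of that depth. Its interquartile range was 0.147 for the members and 0.28 for the 6869 genes, and its median was 0.052 and 0.03. A ratio between 0.9 and 1.1 was found for 51 of 71 members (71.8%) and for 3438 of the 6869 genes (50.1%). The interval lay above 1 for 29 of the 71 members and below 1 for 4, where the background was 36.8% above and 26.8% below. Genes are not replicates, and these spreads describe this pair of libraries.

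**Figure D1:**
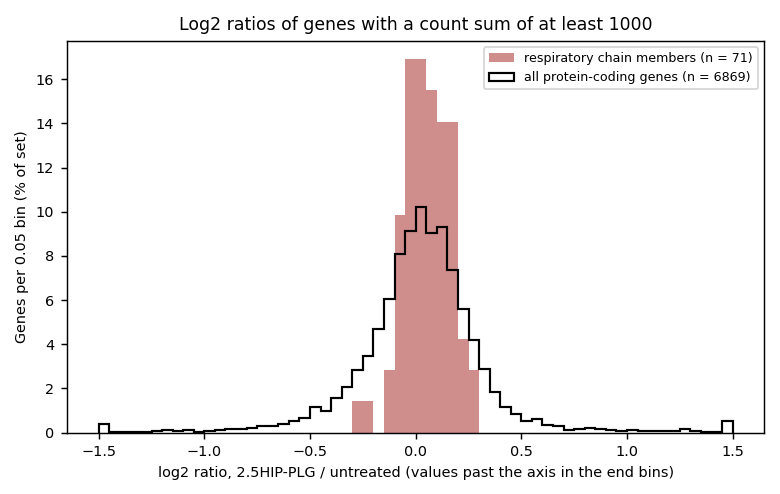
Histogram of log2 ratios (2.5HIP-PLG over untreated, x axis) for genes whose counts summed to 1000 or more, as a percentage of each set per bin (y axis). Filled bars are the 71 respiratory chain members and the black outline is all 6869 protein-coding genes. The members crowd around 0 with a standard deviation of 0.107, and the outline is wider at 0.351.

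Many members have little annotated exon sequence. The median exon length was 1737 bases over measured members and 4454 bases over measured protein-coding genes. Exon length here counts every annotated exon of a gene once, so it can exceed the length of its transcripts. The levels per kilobase given below share this limit. Among the 103 protein-coding genes with under 1000 bases of exon and 1000 or more counts, the log2 ratio had an interquartile range of 0.245, narrower than the 0.28 of all 6869, and a standard deviation of 0.444, wider than their 0.351. The 1.5-fold rule was passed by 9.71% of these short genes, and the interval left out 1 for 55.3% of them, against 63.5% of the 6869. The part of exon length in the narrow spread of the members was not tested. Of the 88 measured members, 19 were that short, and 0 of them passed it.

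The promoters of the members were searched for motifs of NRF1, GABPA and YY1, transcription factors known to bind promoters of respiratory genes. RefSeq promoters (GRCm38.p6, 250 bases before to 50 after the start) were found for 71 of the 88 measured members. The NRF1 motif was GCGC, any base and TGCGC, read on both strands. It was in 19 of the 71 genes (26.8%), in 11.9% of 9199 other measured protein-coding genes and in 5.19% of all 27025 genes with a promoter. The GABPA core CCGGAAG was in 18 of the 71 (25.4%), against 21.3% and 9.93% of those same sets. Its longer form CCGGAAGTG was in 2 of the 71 (2.82%), against 5.2% and 2.25%. The direction against the other measured genes thus depended on the GABPA pattern. The YY1 motif AAGATGGC was in 10 of the 71 (14.1%), against 5.45% and 3.19%. Stricter forms of the NRF1 and YY1 motifs were in 9.86% and 7.04% of the 71, against 2.45% and 1.88% of the 9199. The search covered 8 patterns, among them a TATA box and a CCAAT box that are not described here. In all, 40 of the 71 genes held at least 1 of the 3 motifs, 7 held at least 2, and matches to different motifs shared bases in 0 genes. A match is a run of letters, not a shown binding site, and these shares were not tested.

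Upstream stretches of genes described below are printed to show these motifs, 5′ to 3′ on the strand of the gene. They end at the RefSeq start or, for Sdha, farther upstream, where the annotated gene begins. Capitals mark NRF1 matches (GCGC, any base and TGCGC, or the same on the opposite strand) and 1 GABPA match (CTTCCGG, which is CCGGAAG on the opposite strand). In GRCm38.p6 they lie at chr13:74350281-74350340 on the minus strand for Sdha, chr9:50603850-50603949 on the minus strand for Sdhd, chr17:56717662-56717761 on the plus strand for Ndufa11 and chr2:73911327-73911426 on the minus strand for Atp5g3.
Sdha: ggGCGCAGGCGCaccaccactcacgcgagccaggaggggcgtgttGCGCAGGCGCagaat
Sdhd: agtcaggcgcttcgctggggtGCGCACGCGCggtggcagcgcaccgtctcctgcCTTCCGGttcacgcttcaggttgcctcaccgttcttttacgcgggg
Ndufa11: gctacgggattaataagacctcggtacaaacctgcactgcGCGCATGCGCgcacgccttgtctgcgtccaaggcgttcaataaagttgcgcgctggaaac
Atp5g3: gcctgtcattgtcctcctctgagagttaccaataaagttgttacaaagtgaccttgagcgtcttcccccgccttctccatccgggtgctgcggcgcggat

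The Sdha stretch holds 2 NRF1 matches, which begin 98 and 55 bases before the start. Another Sdha match begins 10 bases before the start, past the end of the printed stretch. Sdhd has an NRF1 match 79 bases and a GABPA match 46 bases before the start. Ndufa11 has the palindromic form of the NRF1 motif, 60 bases before the start. Atp5g3 has no match in the printed stretch, and its NRF1 match lies downstream of the start. Members with the NRF1 motif had a median log2 ratio of 0.082 (range -0.254 to 0.431), and members without it one of 0.062. The other 2 motifs went the other way, with medians of 0.045 with and 0.079 without the GABPA core. For YY1 they were 0.039 and 0.071. The NRF1 motif was in genes at both ends of the range, in Ndufa5 and Atp5g3 with high ratios and in Atp5h and Ndufaf4 with low ones. Ndufa10 held none of the 3 motifs.

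Complex I, which oxidises NADH, was represented by 41 rows apart from its assembly factors, and 38 of them were measured. By their symbols these rows include Ndufa4, described below with complex IV, and the processed pseudogenes Ndufa11b, Ndufb4c and Ndufs6b, of which Ndufb4c was measured. Together the 41 rows had 41543 counts in treated cells and 46895 in untreated cells, a ratio of 1.03 (1.02 to 1.04). The median log2 ratio was 0.025 and became -0.003 with upper quartile scaling, so its sign depends on the scaling. Ratios lay above 1 for 23 genes and below 1 for 15, or for 18 and 20 with that scaling.

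In the N module of complex I, which takes electrons from NADH, the summed ratio was 1.02 (0.994 to 1.05). Ndufv1, the subunit that binds NADH and FMN, had 1224 counts in treated and 1447 in untreated cells (ratio 0.983, 0.911 to 1.06). Ndufs1, the largest iron-sulfur subunit, had 1645 counts in treated and 1882 in untreated cells (1.02, 0.951 to 1.09). Both intervals included 1. Ndufv2, another iron-sulfur subunit, had 1634 counts in treated and 1708 in untreated cells (1.11, 1.04 to 1.19). The accessory subunit Ndufa12 had 921 counts in treated and 957 in untreated cells (1.12, 1.02 to 1.23), and a ratio of 1.07 (0.986 to 1.17) once the reads of its pseudogene copy were added. Of the 8 genes of the module, Ndufv2 and Ndufa12 were the ones with an interval above 1, and 0 had one below. The accessory subunit Ndufv3 had 1383 counts in treated and 1716 in untreated cells (0.937, 0.872 to 1.01).

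The Q module passes electrons on to ubiquinone, and its summed ratio was 1.07 (1.04 to 1.11). Ndufs3 had 966 counts in treated and 1019 in untreated cells (1.102, 1.01 to 1.21). Its interval lay above 1. Ndufs7 had 812 counts in treated and 955 in untreated cells (0.989, 0.899 to 1.09), and Ndufs8 had 888 and 1006 (1.03, 0.937 to 1.12), both iron-sulfur subunits near the ubiquinone site. The accessory subunit Ndufa5 (chromosome 6, 24518666 to 24528013, GRCm38) had 428 counts in treated cells and 369 in the more deeply sequenced untreated library. Its ratio of 1.35 (1.17 to 1.55) was the highest among members whose interval left out 1. Its counts were whole in both libraries.

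The remaining 25 measured rows of complex I, membrane arm and accessory subunits with Ndufa4 and Ndufb4c among them, had a summed ratio of 1.02 (1.01 to 1.04). Ndufa10 (chromosome 1, 92439010 to 92473860), an accessory subunit related to nucleoside kinases, had 1742 counts in treated and 2449 in untreated cells. Its ratio of 0.827 (0.777 to 0.880) was the lowest of the 88 measured members, and its counts were whole. At the high end stood small membrane subunits. Ndufc2 had 709 counts in treated and 716 in untreated cells (1.15, 1.04 to 1.28). Ndufa11, whose promoter is printed above, had 1099 counts in treated and 1123 in untreated cells (1.14, 1.05 to 1.24). Ndufa13, also known as the cell death gene GRIM-19, had 2557 counts in treated and 2631 in untreated cells (1.13, 1.07 to 1.19). All 3 had intervals above 1 but ratios under 1.2. Ndufab1, the mitochondrial acyl carrier protein, had 732 counts in treated and 824 in untreated cells (1.03, 0.934 to 1.14). Per kilobase of exon, Ndufa1 was the most abundant complex I gene, at 110.0 CPM per kb in treated and 113.9 in untreated cells (CPM are counts relative to scaled library size). Ndufb11 followed at 92.2 CPM per kb in treated and 92.6 in untreated cells. Their counts were 1036 and 1248 for Ndufa1 and 1883 and 2198 for Ndufb11, with ratios of 0.965 and 0.996 whose intervals included 1.

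The complex I assembly factors, which build the complex without staying in it, were scarcer. Their levels lay between 2.06 and 10.5 CPM per kb in treated cells and between 1.75 and 8.44 CPM per kb in untreated cells. The median level of the subunits was 25.7 CPM per kb in treated and 26.7 in untreated cells. The 8 genes together had 1850 counts in treated and 1976 in untreated cells, a ratio of 1.09 (1.02 to 1.16). Ndufaf1 had 279 counts in treated and 263 in untreated cells (1.23, 1.04 to 1.46). Ndufaf7, a methyltransferase, had 361 counts in treated and 343 in untreated cells (1.22, 1.05 to 1.42). Ndufaf8 had 196 counts in treated and 184 in untreated cells (1.24, 1.01 to 1.52). These 3 of 8 were higher at 1.2-fold, beside 13.5% of all measured genes, and Ndufaf4 had the lowest ratio, with 248 counts in treated and 344 in untreated cells (0.838, 0.709 to 0.990). The other 4 had intervals that included 1. The assembly genes of complex I with other names had a median log2 ratio of 0.010 over 8 genes (-0.018 with upper quartile scaling and -0.056 over the 3 with 1000 or more counts), against 0.228 for the Ndufaf genes. Among them Tmem70 had 517 counts in treated and 443 in untreated cells (1.36, 1.19 to 1.54), Tmem186 had 343 and 480 (0.831, 0.721 to 0.956), and Ecsit had 522 and 648 (0.937, 0.833 to 1.05).

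**Figure D2:**
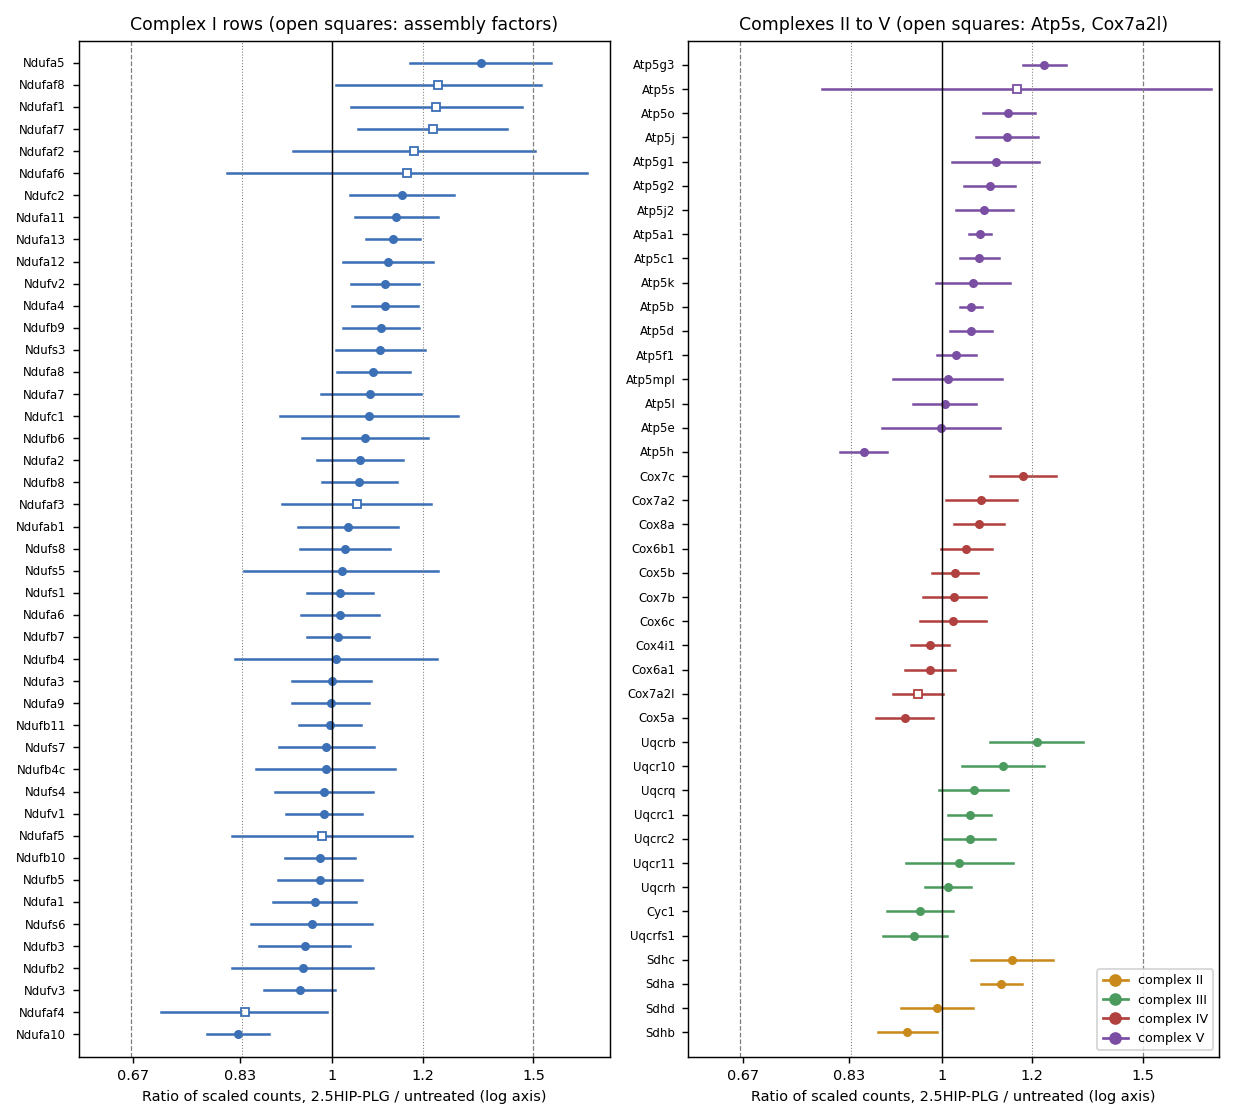
Ratio of scaled counts (2.5HIP-PLG over untreated, log axis) for 86 of the 88 measured members, with 95% intervals for counting error, complex I on the left and complexes II to V on the right, dashed lines at 1.5-fold and dotted lines at 1.2-fold. Open squares are assembly factors, Atp5s and Cox7a2l, and Cox6b2 (20 and 12 counts, interval 0.902 to 4.35) and 1 gene not reported here are left out. The points run from Ndufa10 at 0.827 to Ndufa5 at 1.35, inside the dashed lines.

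Complex II, succinate dehydrogenase, links the chain to the tricarboxylic acid (TCA) cycle. Its 4 genes had a summed ratio of 1.06 (1.03 to 1.09), with 2 of them above 1 and 2 below. Sdha, the flavoprotein that oxidises succinate, had 4428 counts in treated and 4562 in untreated cells (1.13, 1.08 to 1.18). Sdhc, a membrane anchor, had 1159 counts in treated and 1169 in untreated cells (1.15, 1.06 to 1.25). Both had intervals above 1. Sdhb, the iron-sulfur subunit, had 1957 counts in treated and 2438 in untreated cells (0.933, 0.879 to 0.991). Sdhd, the other anchor, had 1367 counts in treated and 1604 in untreated cells (0.991, 0.921 to 1.07). The counts of all 4 were whole, and 0 of the 4 overlap an exon of another gene. The intervals of Sdha and Sdhc do not overlap that of Sdhb, so the transcripts of this one complex differed by more than counting error, though each by less than 1.2-fold. Per kilobase the order in treated cells was Sdhd (49.4 CPM per kb), Sdha (47.7), Sdhb (38.9) and Sdhc (15.9), and in untreated cells Sdhd (49.8), Sdha (42.3), Sdhb (41.7) and Sdhc (13.8).

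Complex III, which hands electrons from ubiquinol to cytochrome c, had all 9 genes measured and a summed ratio of 1.04 (1.02 to 1.06). Of these 9 nuclear genes, Cyc1 and Uqcrfs1 had the lowest ratios. Cyc1, cytochrome c1, had 1610 counts in treated and 1953 in untreated cells (0.958, 0.897 to 1.02). Uqcrfs1, the Rieske iron-sulfur protein, had 1716 counts in treated and 2107 in untreated cells (0.947, 0.888 to 1.01). Both intervals included 1. The core protein Uqcrc1 had 3945 counts in treated and 4333 in untreated cells (1.06, 1.01 to 1.11), and Uqcrc2 had 2815 and 3094 (1.06, 1.01 to 1.11). Uqcrb (chromosome 13, 66900617 to 66905378), a ubiquinone-binding subunit, had 929 counts in treated and 892 in untreated cells (1.21, 1.103 to 1.33). Its exons overlap those of Gm10767 on the opposite strand, and its counts were not whole. With the reads of 4 near-identical pseudogene copies added, its ratio was 1.206. Uqcr10 had 1131 counts in treated and 1163 in untreated cells (1.13, 1.04 to 1.23). Uqcrh, the hinge protein, was the most abundant per kilobase, at 123.3 CPM per kb in treated and 121.8 in untreated cells, from 3429 and 3938 counts.

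Complex IV, cytochrome c oxidase, had 11 of 18 subunit rows measured. The 18 rows together had 25925 counts in treated and 29440 in untreated cells, a ratio of 1.02 (1.01 to 1.04). Cox4i1, a regulatory subunit, had 4780 counts in treated and 5684 in untreated cells (0.978, 0.941 to 1.02). Cox5a, which pairs with it, had 2137 counts in treated and 2676 in untreated cells (0.928, 0.877 to 0.983). Cox5b, which binds zinc, had 3466 counts in treated and 3920 in untreated cells (1.03, 0.982 to 1.08). Of these 3, Cox5a had an interval below 1. Among genes with many reads Cox7c had the highest ratio, with 1824 counts in treated and 1800 in untreated cells (1.18, 1.103 to 1.26). Neither Cox5a nor Cox7c had whole counts. Per kilobase Cox8a led at 217.7 CPM per kb in treated and 201.8 in untreated cells, from 3030 and 3266 counts (1.08, 1.03 to 1.13). Cox6a1 followed at 180.9 CPM per kb in treated and 185.1 in untreated cells, from 2856 and 3397 counts, and Cox6b1 at 177.1 and 168.5, from 2819 and 3119 counts.

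Several complex IV subunits exist in tissue-specific isoforms, and nearly all reads of both libraries came from the widely expressed forms. Cox4i1 held 99.96% of the counts of Cox4i1 and Cox4i2 in treated cells (exact binomial interval 99.85 to 99.99), and Cox4i2 had 0 of 5684 in untreated cells. Here and below, the share that a count of 0 allows is set at 3 counts of the total, which gives up to 0.0528% for Cox4i2. The heart and muscle form Cox6a2 had 5 counts in treated and 4 in untreated cells, and Cox6a1 held 99.83% and 99.88% of that pair. The muscle form Cox7a1 had 8 counts in treated and 4 in untreated cells. These forms were thus near the floor of 3 counts in both libraries. Cox6b2, known from testis, had 20 counts in treated and 12 in untreated cells, which was 0.705% (0.431 to 1.09) and 0.383% (0.198 to 0.669) of the counts of Cox6b1 and Cox6b2. These intervals overlap. Cox8b, Cox8c and Cox7b2 had 0 counts in both libraries. This allows each Cox8 form up to 0.099% in treated and 0.0919% in untreated cells, and Cox7b2 up to 0.165% and 0.146%. Of 10 striated muscle markers, 6 had 0 counts in both libraries, among them Myh6, Myh7 and Actc1, and Mylpf had 71 counts in treated and 74 in untreated cells. Tnnt3 had 9 and 27 (0.388, 0.160 to 0.849), Acta1 1 and 4, and Ckm 1 and 5. Siglech, a marker of plasmacytoid dendritic cells, which are known to express Cox6a2, had 8 counts in treated and 19 in untreated cells. Of the other markers of these dendritic cells, Bst2 had 699 and 980, Tcf4 120 and 200, and Ccr9 24 and 50. Irf8 went the other way, with 2195 and 1067. The part of such cells in the few isoform reads was not tested.

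Cox7a2l joins complexes III and IV into supercomplexes, and Cox7a2 is the related subunit of complex IV. Cox7a2l had 2750 counts in treated and 3353 in untreated cells (0.954, 0.906 to 1.003). Cox7a2 had 1478 counts in treated and 1586 in untreated cells (1.08, 1.01 to 1.16). Of the counts of Cox7a1, Cox7a2 and Cox7a2l, Cox7a2l held 64.9% (63.5 to 66.4) in treated and 67.8% (66.5 to 69.1) in untreated cells, intervals that do not overlap. Pseudogene copies that match Cox7a2l had a further 1519 and 1884 counts, so the share of the gene itself is uncertain. With them its ratio was 0.948 (0.910 to 0.987). Ndufa4, long counted with complex I and now placed in complex IV, had 1743 counts in treated and 1823 in untreated cells (1.11, 1.04 to 1.19). Its hypoxia-induced relative Ndufa4l2 had 0 counts in both libraries, which allows up to 0.172% of the pair in treated and 0.165% in untreated cells. In the sums above, this pair is counted with complex I. With the pair added to complex IV, the summed ratio of complex IV was 1.03 (1.01 to 1.05). The median log2 ratio was then 0.056, against 0.04 without the pair. Cox7b had 1816 counts in treated and 2058 in untreated cells (1.03, 0.963 to 1.09).

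**Figure D3:**
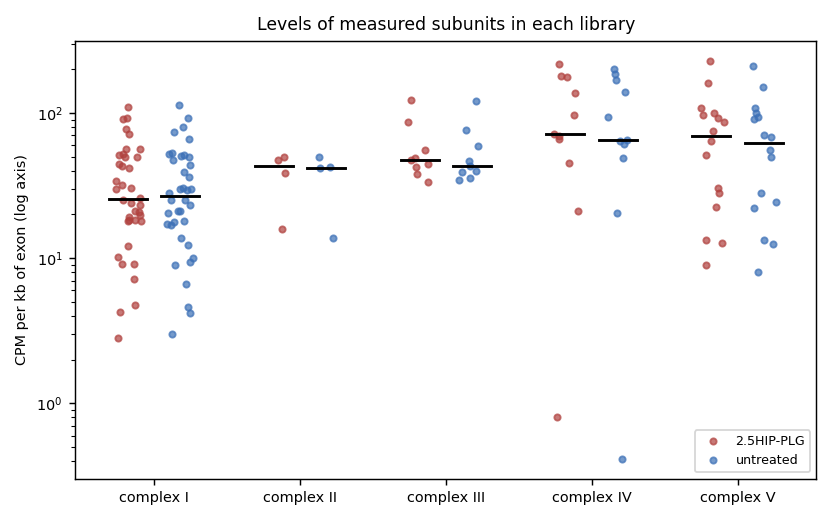
Level of each measured subunit in CPM per kb of exon (log axis) by complex, with the 2.5HIP-PLG library left of the untreated library and black bars at the median. Complex I here includes Ndufa4 and the processed pseudogene Ndufb4c. Medians ran from 25.7 (2.5HIP-PLG) and 26.7 (untreated) CPM per kb in complex I to 71.7 and 64.8 in complex IV, and the lowest point in complex IV is Cox6b2.

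The subunits of ATP synthase had 67525 counts in treated and 73472 in untreated cells, a ratio of 1.07 (1.06 to 1.08), an interval that overlaps those of complexes II and III. Without members whose exons overlap another gene it was 1.06, the same as for complex II. Of 16 measured rows, 14 had ratios above 1 (12 with upper quartile scaling), and the median log2 ratio was 0.10. The alpha and beta subunits of the catalytic head had the most counts of all members. Atp5a1 had 16168 counts in treated and 17398 in untreated cells (1.08, 1.06 to 1.104), or 229.3 and 212.3 CPM per kb. Atp5b had 15305 counts in treated and 16768 in untreated cells (1.06, 1.04 to 1.08), or 160.6 and 151.4 CPM per kb. The gamma subunit Atp5c1 had 4651 counts in treated and 5011 in untreated cells (1.08, 1.04 to 1.12), or 108.4 and 100.5 CPM per kb. All 3 intervals lay above 1. The epsilon subunit Atp5e had 523 counts in treated and 609 in untreated cells (0.998, 0.887 to 1.12).

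The c ring, the rotor in the membrane, had a higher summed ratio than the rest of the enzyme, with Atp5g3 as its highest gene. Its genes Atp5g1, Atp5g2 and Atp5g3 encode the same mature protein behind different import sequences. They summed to 8029 counts in treated and 7996 in untreated cells, a ratio of 1.17 (1.13 to 1.204). The head had a summed ratio of 1.07 (1.06 to 1.08) and the stalk and membrane subunits one of 1.03 (1.01 to 1.05). Atp5g3 (chromosome 2, 73908447 to 73911326), whose promoter is printed above, had 4223 counts in treated and 3992 in untreated cells (1.23, 1.18 to 1.285), and its counts were whole. Atp5g2 had 2823 counts in treated and 2979 in untreated cells (1.102, 1.05 to 1.16). Atp5g1 had 983 counts in treated and 1025 in untreated cells (1.11, 1.02 to 1.22). The intervals of Atp5g1 and Atp5g2 overlap that of the head, and that of Atp5g3 lies above it. The higher sum is thus not a trait shared by all genes of the ring. Outside the ring, Atp5o and Atp5j had higher ratios than Atp5g1 and Atp5g2, and the other measured subunits had lower ones. Atp5g3 supplied 52.6% (51.5 to 53.7) of the counts of the c ring in treated cells and 49.9% (48.8 to 51.0) in untreated cells, intervals that do not overlap. Atp5g2 supplied 35.2% in treated and 37.3% in untreated cells, and Atp5g1 12.2% and 12.8%. With the reads of 4 pseudogene copies each, the ratios of Atp5g1 and Atp5g2 were 1.15 (1.06 to 1.25) and 1.09 (1.04 to 1.15).

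Of the stalk and membrane subunits, 7 of 8 had ratios above 1, and Atp5h, subunit d, did not. The tally was 6 of 8 with library totals and 5 of 8 with upper quartile scaling, since Atp5l and Atp5mpl lay close to 1. Atp5h (chromosome 11, 115415689 to 115419962) had 3032 counts in treated and 4122 in untreated cells (0.855, 0.816 to 0.896). Its counts were not whole, and with 6 pseudogene copies added its ratio was 0.857 (0.818 to 0.898). Atp5o, which joins head and stalk, had 2827 counts in treated and 2872 in untreated cells (1.14, 1.09 to 1.21). Coupling factor 6, Atp5j, had 1964 counts in treated and 2001 in untreated cells (1.14, 1.07 to 1.22). Its exons overlap those of Gabpa on the opposite strand, which had 2358 counts in treated and 2417 in untreated cells (1.13, 1.07 to 1.201), and the strand setting of the counting is not stated. Atp5s had 55 counts in each library.

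Summed over each complex, mitochondrially encoded subunits had higher ratios than the nuclear subunits. The 7 of complex I had a summed ratio of 1.28 (1.27 to 1.29), against 1.03 for the nuclear ones, and the 3 of complex IV had 1.28 (1.275 to 1.29), against 1.02. In complex III mt-Cytb had a ratio of 1.19 (1.175 to 1.2), against 1.04, and the 2 mitochondrial genes of ATP synthase had 1.202 (1.19 to 1.22), against 1.07. Single genes overlapped, since mt-Cytb lay below nuclear Uqcrb at 1.21. Likewise mt-Nd3 at 1.06 (1.001 to 1.12) lay below Ndufa5 at 1.35, and mt-Atp8 at 1.12 (1.101 to 1.15) below Atp5g3 at 1.23. Of the 13 mitochondrial genes, mt-Nd5 (41788 counts in treated and 30640 in untreated cells) and mt-Nd6 (9540 and 6716) passed the 1.5-fold rule. Both were higher, beside 5.32% of all measured genes. Transcripts of mitochondrial DNA took 2.75% of all counts in treated and 2.29% in untreated cells, and the ribosomal RNA gene CT010467.1 took 0.202% and 1.06%. The part of RNA composition in this difference was not tested.

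Glycolysis genes were farther from 1 than the respiratory genes. Of 16 measured, 2 were higher at 1.5-fold and 13 at 1.2-fold, where 5.32% and 13.5% of all measured genes were, 0 were lower, and the median log2 ratio was 0.39. Slc16a3, a lactate exporter, had 744 counts in treated and 285 in untreated cells (3.04, 2.64 to 3.49). Tpi1, triose phosphate isomerase, had 5139 counts in treated and 3051 in untreated cells (1.96, 1.87 to 2.05). The 14 TCA cycle genes were nearer to the respiratory genes, with a median log2 ratio of 0.062. At 1.5-fold 1 of the 14 was lower, where 9.42% of all measured genes were. That gene was Idh2, the NADP-linked isocitrate dehydrogenase, with 545 counts in treated and 957 in untreated cells (0.662, 0.595 to 0.736).

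Lists of genes that serve the chain gave 0 calls at 1.5-fold, in 7 lists from its assembly factors to its cristae. The share in either direction was 14.7% of all measured genes and 5.6% of protein-coding genes with 1000 or more counts. With 8 to 19 measured genes per list, 0 calls in a single list says little. Of 8 mobile carriers and other ubiquinone reductases, Cycs, cytochrome c, had 2089 counts in treated and 1920 in untreated cells (1.265, 1.19 to 1.35). Gpd2, which feeds electrons from glycerol phosphate to ubiquinone, had 656 counts in treated and 917 in untreated cells (0.832, 0.751 to 0.920). Of 11 coenzyme Q synthesis genes, 4 were higher at 1.2-fold and 0 were lower, beside 13.5% and 16.7% of all measured genes. The median over the list was 0.217 on the log2 scale, and 0.138 over the 3 genes with 1000 or more counts. Coq9 was one of these, with 633 counts in treated and 568 in untreated cells (1.296, 1.155 to 1.45). Of 19 measured complex IV assembly genes, 2 were higher at 1.2-fold and 1 was lower, beside 13.5% and 16.7% of all measured genes. The lower one was Cox10, which makes a precursor of heme a, with 458 counts in treated and 680 in untreated cells (0.783, 0.694 to 0.883). Of the 13 assembly genes of complexes II, III and V, Sdhaf2 had 1182 counts in treated and 1280 in untreated cells (1.07, 0.991 to 1.16). Of 11 measured genes for cristae and nucleotide exchange, the uncoupling protein gene Ucp2 had 27739 counts in treated and 26141 in untreated cells (1.23, 1.21 to 1.255).

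Of 11 measured regulators of respiratory genes, 3 were higher and 2 lower at 1.2-fold, beside 13.5% and 16.7% of all measured genes. Gabpb1, the partner of Gabpa, had 1152 counts in treated and 1026 in untreated cells (1.305, 1.199 to 1.42). Tfam, which packages mitochondrial DNA, had 1074 counts in treated and 1007 in untreated cells (1.24, 1.14 to 1.35). Nrf1 itself had 1668 counts in treated and 1988 in untreated cells (0.976, 0.914 to 1.04). The factors whose motifs were searched thus had ratios between 0.976 (Nrf1) and 1.13 (Gabpa), with Yy1 at 1.07. The coactivator gene Ppargc1b had 124 counts in treated and 184 in untreated cells (0.784, 0.619 to 0.989), and Ppargc1a had 0 in both libraries.

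**Figure D4:**
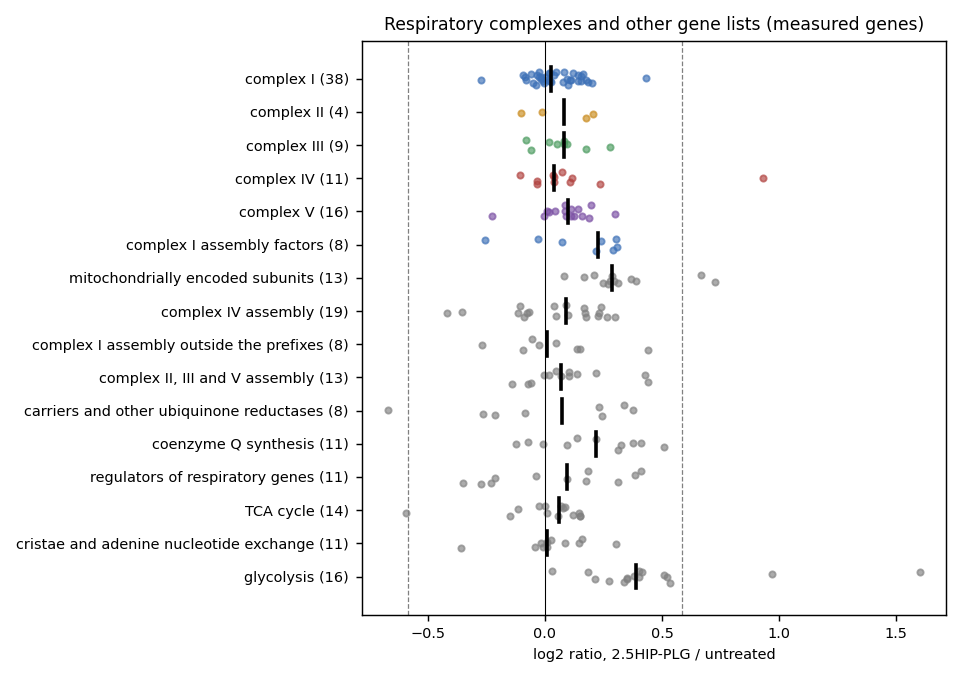
Log2 ratio (2.5HIP-PLG over untreated, x axis) of each measured gene in rows for the 5 complexes, the complex I assembly factors and 10 other lists, with the number of genes in brackets, black bars at the median and dashed lines at 1.5-fold. The medians of the complexes lie between 0.025 and 0.10, that of the mitochondrially encoded subunits is 0.285 and that of glycolysis 0.39. The complex IV point past the dashed line is Cox6b2, whose interval included 1.

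The 11 rows below the count minimum complete the set. Ndufa4l2, Cox7b2, Cox8b, Cox8c and the second Atp5o row had 0 counts in both libraries. Cox4i2 had 2 counts in treated and 0 in untreated cells, Cox6c2, Ndufa11b and Ndufs6b each had 0 and 1, and Cox6a2 and Cox7a1 are given above. Of the 88 measured members, 57 had whole counts in both libraries and 31 did not, and 30 overlap an exon of another gene. The summed ratio was 1.05 (1.04 to 1.06) for members with whole counts and 1.03 (1.02 to 1.05) for the others.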

How the data were processed

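Per the labels' protocols, RNA came from an RNeasy Plus Mini Kit extraction and libraries from the Universal Plus mRNA kit of NuGen. The authors deposited expected counts per gene. RSEM 1.3.1, STAR and GRCm38 are named in the submitters' processing notes. No source used here gives the annotation, the strand setting, the filters or the STAR version, so overlapping and antisense genes are uncertain. Expected counts were rounded and scaled by TMM in edgeR 4.0.16 (R 4.3.3). Ratios got exact conditional binomial 95% intervals in scipy 1.17.1. These and the floors (3 counts) cover counting error only, since no molecular identifiers are described. Log2 ratios had 0.5 counts added. A call needed a ratio of at least 1.5 and an interval without 1. GENCODE M21 (GRCm38) held 54495 of the 54532 row IDs. Pseudogene copies were found with blastn 2.17.0, at 90% identity or more over at least 200 bases. One member of complex I is counted in the sums but not reported here by itself. The calculation was tested on simulated data.

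The members, the lists and the rule for named genes were chosen with earlier results of these data known. The rule named called members, the 3 most abundant per kilobase, the 2 highest and 2 lowest ratios per complex at 1000 or more counts, core subunits, isoforms and, per other list, called genes and the one farthest from 1. Other genes were named after their values were seen, and the promoter motifs were chosen then too. Alternatives were scaling by library totals, by the upper quartile, by DESeq2 1.42.0 size factors or by TMM after removal of the top 20 genes, unrounded counts, other count minimums (0, 100 and 1000), ratios of 1.2 and 2, a 99% interval, 2 added counts, subunits only and whole counts only. Adding pseudogene copies and leaving out overlapping members were chosen after seeing the data.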

Additional observations from a re-analysis of the deposited data

How the results depend on the processing

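No paired analysis was possible because each group has 1 library, and for the same reason no library could be left out. All 440 member ratios recomputed under 4 other scalings or without rounding stayed inside their counting intervals. These are not 440 separate checks, since each scaling moved all ratios by the same factor. The largest such shift was -0.028 on the log2 scale, with upper quartile scaling. At a ratio of 1.2 the members called were 6 higher and 1 lower, against 0 and 0. The summed ratio of all members was 1.037 with library totals and 1.026 with upper quartile scaling, which gave 1.01 for complex I, 1.004 for complex IV and 1.048 for complex V. Without members whose exons overlap another gene, a choice made after seeing the data, it was 1.012 for complex I, 1.051 for complex IV and 1.06 for complex V, level with complex II. The median log2 ratio of the mitochondrially encoded list was 0.257 with upper quartile scaling and 0.248 with whole counts only. That of the carriers was 0.075 at the minimum of 20. It became 0.233 at count sums of at least 100, where Prodh (16 and 30 counts) drops out, and of at least 1000, where fewer genes are left. The median of coenzyme Q synthesis was 0.138 at 1000. With whole counts only, 1 glycolysis gene was called higher and the median of that list was 0.454, over fewer genes. For the scalings the cause was not tested.

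Counting intervals do not cover differences between mice or between library preparations, and with 1 library per group these cannot be told apart from the treatment. The narrow spread of the members is a statement about this pair of libraries. Scarce genes such as Cox6b2 and the tissue-specific isoforms have too few reads to show a difference of 1.5-fold, and the pseudogene copies make Ndufb4, Ndufs5, Atp5l and Cox7a2l less certain than their counts.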

Other observations

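Of the 9 rows dropped for a "-ps" symbol, Ndufb1-ps had counts like those of a subunit gene. It had 475 counts in treated and 601 in untreated cells, a ratio of 0.919 (0.813 to 1.04), and the annotation classes it as a bidirectional promoter lncRNA, not as a pseudogene. The other 8 had at most 4 counts in either library. Ndufb4c, a processed pseudogene by class, had more reads than its near-identical gene Ndufb4, with 377 counts in treated and 444 in untreated cells, against 182 and 210 for Ndufb4. The counts of both were not whole, and their sum gave a ratio of 0.994 (0.886 to 1.11). The pseudogene copy of Ndufs5 had 268 counts in treated and 324 in untreated cells, against 198 and 226 for Ndufs5. The 13 copies that match Atp5l had 546 and 523 counts in treated and untreated cells, and the ratio of Atp5l was 1.05 (0.990 to 1.11) with them and 1.006 without.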
